A study of Arabidopsis thaliana with 22 samples.

Results

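The comparison described here asked which genes differ in RNA level 4 hrs after the bHLH factor GL3 is switched on in *Arabidopsis thaliana* seedlings. It consists of the 6 arrays whose labels name the pGL3::GL3-GR line at 4 hrs, 3 of them DEX and 3 of them Mock, out of 22 arrays in the series. The other arrays hold the same line at 24 hrs and the pGL1::GL1-GR line at both times. All 6 were Affymetrix ATH1 arrays hybridised with amplified RNA from green tissues, and values are deposited GCRMA expression values on the log2 scale, in which a difference of 1 is a 2-fold difference. Per the study's methods, all 6 samples came from *gl3 egl3* double mutant plants that carry GL3 joined to the hormone-binding domain of a glucocorticoid receptor (GR) and driven by the *GL3* promoter. DEX plants were moved to medium with dexamethasone (DEX), which lets the fusion protein act, and Mock plants to medium with ethanol, its solvent. The methods name no array of the mutant without the fusion under DEX, so an effect of DEX that does not run through GL3-GR cannot be told apart from one that does. Each extraction pooled many seedlings, and the *GL3* promoter is active in only part of the cells of green tissue.

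Trichomes are the branched hairs of the leaf surface, each a single cell. Cells of the young epidermis become trichomes when GL3 (or its relative EGL3), the R2R3-MYB factor GL1 and the WD40 protein TTG1 act as a complex that switches on genes such as *GL2*, which encodes a homeodomain factor needed for trichome growth. The same complex switches on small single-repeat MYB proteins (*CPC*, *TRY*, *ETC1*) that compete with GL1 for the bHLH partner and keep neighbouring cells from becoming trichomes. Of these, the study describes movement into neighbouring leaf cells as shown for CPC alone. A trichome cell then leaves the mitotic cycle and copies its DNA several times (endoreduplication) before it branches.

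The largest differences between arrays did not follow treatment. Pairs of arrays correlated at 0.937 to 0.979 over all probe sets, and Mock 1 correlated best with DEX 1 (0.963). The first principal component, with 42% of the variance, placed Mock 1 (-63.2) and DEX 1 (-48.4) on one side and the other 4 arrays (23.7 to 32.4) on the other. The third component, with 15.4%, did separate the treatments, with Mock arrays at -30.1 to -13.2 and DEX arrays at 9.7 to 34.9. Mock 1 lay more than 1 log2 unit above each of the other 5 arrays for 406 of the 14348 probe sets tested (2.83%), and DEX 1 did so for 305. DEX 2 did so for 16, Mock 2 for 61, DEX 3 for 98 and Mock 3 for 160. The root mean square residual SD of these 6 arrays was 0.573, against 0.208 for GL1-GR at 4 hrs and 0.191 for GL3-GR at 24 hrs. Differences are therefore given with and without Mock 1, and for the tested direct targets also as the range when each of the 6 arrays was left out in turn. The labels give these samples only a number, so p-values measure the spread between the samples, and nothing in the labels says what sets Mock 1 or DEX 1 apart. *RCA* (Rubisco activase), a gene of photosynthetic cells, stood at 10.64 to 11.48 on all 6 arrays, and *EXPA7*, a root hair gene, at 2.30 to 2.36, the floor. Of the other markers listed for mesophyll, root, vasculature, guard cells and dividing cells, only the guard cell gene *FMA* had a named probe set.

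No probe set passed the test when all 6 arrays were used. Of the 14348 probe sets tested, 0 (0%) had a limma adjusted p under 0.05, and the smallest adjusted p was 0.986. At an unadjusted p under 0.01, 11 probe sets (0.0767%) were higher and 39 (0.272%) lower with DEX, fewer than the 143 that 1% of the tests comes to, and 433 (3.02%) had an unadjusted p under 0.05. The 3 DEX arrays all lay above the 3 Mock arrays for 367 probe sets (2.56%) and all below them for 806 (5.62%). The median log2 difference over all tested probe sets was -0.09. The balance of directions depended on the scaling of the arrays: after quantile normalization the probe sets with p under 0.01 were 37 higher and 21 lower, and after shifting the arrays to 1 median they were 37 higher and 19 lower. The genes below are thus those with the smallest p of a comparison in which none was called, and none is reported as a response.

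Among the genes lower with DEX, At5g28630, annotated in the study's tables as a glycine-rich protein, had the largest difference of all tested probe sets in that direction. Its values were 8.15, 5.93 and 6.73 on Mock arrays 1 to 3 and 4.21, 3.02 and 3.79 on DEX arrays 1 to 3. The lowest Mock array lay above the highest DEX array by well over 1 log2 unit. The means were 6.94 ± 1.12 (SD, n = 3) for Mock and 3.67 ± 0.60 (SD, n = 3) for DEX, a difference of -3.27 (SE 0.60), or a DEX over Mock ratio of 0.10 (limma adjusted p = 0.986). At5g28610, whose locus number lies close to that of At5g28630, had values of 6.34, 5.06 and 5.96 on the Mock arrays and 3.84, 3.96 and 3.65 on the DEX arrays. Here too the groups did not overlap, and the difference was -1.97 (SE 0.36, ratio 0.26, limma adjusted p = 0.986).

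The other 8 genes of smallest p in this direction had smaller and tighter differences of -0.92 to -1.41. At1g57600 stood at 6.66, 6.48 and 6.94 in Mock and 5.17, 5.0 and 5.69 in DEX plants, a difference of -1.41 (SE 0.27). At2g41890 stood at 5.98, 5.87 and 5.61 in Mock and 4.82, 4.61 and 4.77 in DEX plants (-1.08, SE 0.21). In both genes Mock 1 lay close to the other Mock arrays and DEX 1 close to the other DEX arrays. At3g60245 stood at 11.06 to 11.16 in Mock and 9.95 to 10.36 in DEX plants (-0.92, SE 0.21). At1g67720, At1g76360, At2g45520, At1g11700 and At2g28080 had differences of -1.19, -1.15, -1.0, -0.96 and -1.03. For each of the 10 genes the groups did not overlap, and without Mock 1 the differences were -0.94 to -2.66. The files and tables used here give no function for these loci other than At5g28630.

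Among the genes higher with DEX, At5g57655 had the largest difference of the 10 with the smallest p. It stood at 8.78, 7.35 and 7.78 in Mock and 9.90, 9.31 and 9.08 in DEX plants, so that Mock 1 came closest to the DEX arrays. The difference was 1.46 (SE 0.42, 2.75-fold, limma adjusted p = 0.986), and without Mock 1 it was 1.86 (SE 0.33, 3.64-fold). At1g03030 stood at 4.34, 3.83 and 3.73 in Mock and 4.79, 5.35 and 5.74 in DEX plants, a difference of 1.32 (SE 0.32, 2.50-fold) with and 1.51 without Mock 1. At4g35220, with the smallest p in this direction, stood at 4.79, 5.43 and 5.11 in Mock and 6.14, 6.81 and 6.17 in DEX plants, a difference of 1.26 (SE 0.29, 2.40-fold) with and 1.10 without Mock 1.

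Of the other members of this set, *5-FCL* and *LCR* have an annotated function. *5-FCL* encodes 5-formyltetrahydrofolate cycloligase, an enzyme of folate metabolism, and stood at 3.20, 3.56 and 4.16 in Mock and 4.73, 5.38 and 4.55 in DEX plants (1.25, SE 0.35 with and 1.03 without Mock 1). *LCR*, or *LEAF CURLING RESPONSIVENESS*, encodes an F-box protein of leaf development and stood at 3.79, 3.20 and 3.62 in Mock and 4.69, 4.50 and 4.13 in DEX plants (0.90, SE 0.26 with and 1.03 without Mock 1). The Mock and DEX values of both genes did not overlap. At1g22180, At2g01060, At5g01010, At5g52810 and At3g22104 had differences of 0.71 to 0.97 with and 0.70 to 1.04 without Mock 1.

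**Figure D1:**
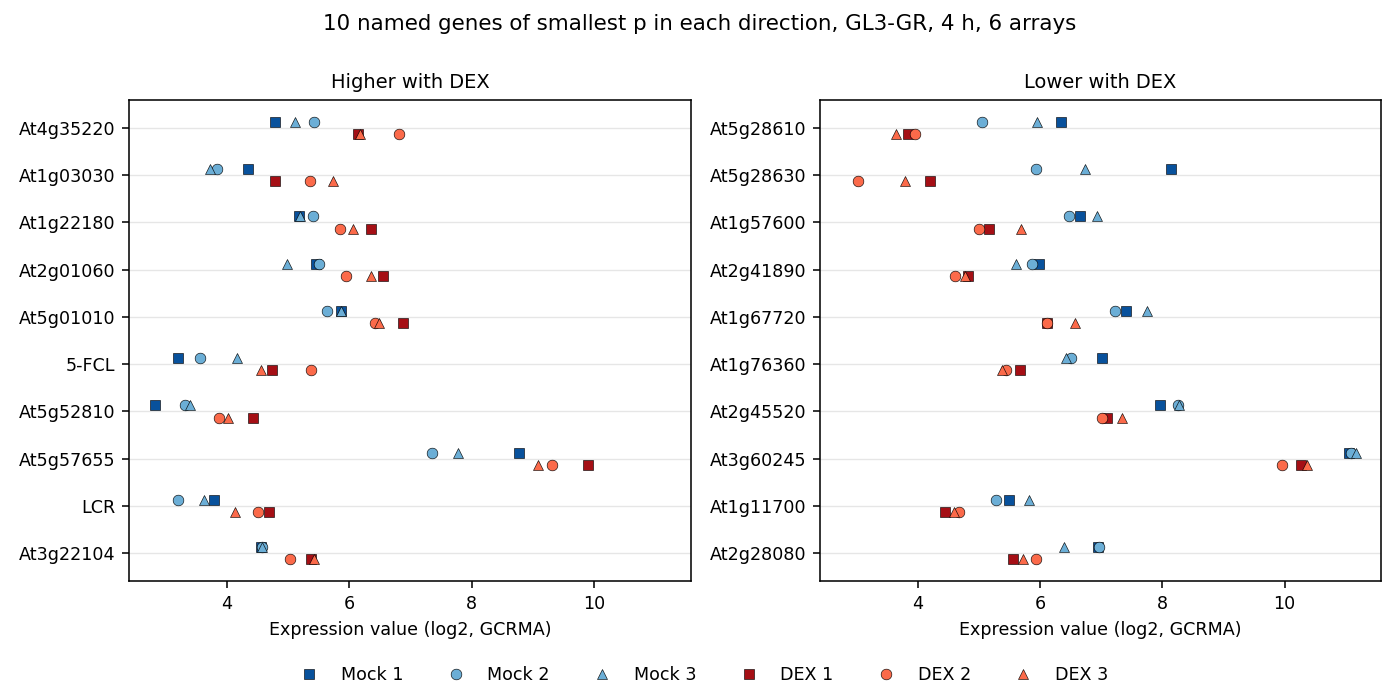
Expression value (log2, x axis) on each of the 6 arrays for the 10 named genes of smallest limma p that were higher (left) and lower (right) with DEX. Blue points are Mock and red points DEX arrays, and squares mark the sample 1 arrays. The Mock and DEX points of each gene do not overlap, yet the limma adjusted p of each was 0.986, and At5g28630 spans the widest range.

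The direct targets, genes listed in the study as bound by GL3 in its ChIP experiments, were considered next, all of which but *GL3* itself were also listed as bound by GL1. Of 18 listed, 14 had a named probe set and 11 were tested, and 0 of these were called. *GL2* (2.29 to 2.30), *TTG2* (2.31 to 2.46), a WRKY factor of trichome growth, and *MYC1* (2.32 to 3.02), a bHLH factor, stayed at or near the floor on all 6 arrays and were not tested. *GL3* itself, *CPL3*, At3g50800 and At5g28350 had no named probe set. Since the tissue is mixed, fewer cells that express a gene and less RNA per cell cannot be told apart at any of these values. Over the 11 tested targets, 4 were higher and 7 lower with DEX, where 8685 of all 14348 probe sets (60.5%) were lower. The median difference of the targets was -0.49 against -0.09 over all probe sets, and 2 had groups that did not overlap, both lower, as for 5.62% of all probe sets. Without Mock 1, 2 were higher and 9 lower, where 8306 of all probe sets (57.9%) were lower, and the median was -0.99 against -0.08.

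The small MYB inhibitors were lower in DEX than in Mock plants 2 and 3, and Mock 1 lay with the DEX arrays. *CPC* stood at 5.04, 5.78 and 7.32 in Mock and 4.63, 5.04 and 4.94 in DEX plants. Its difference was -1.18 (SE 0.56, limma adjusted p = 0.986) with all arrays and -1.68 (SE 0.48, adjusted p = 0.514) without Mock 1. The difference rested in large part on Mock 3 and was -0.54 without it, so that leaving out 1 array gave -1.68 to -0.54. *TRY* stood at 3.91, 5.90 and 5.85 in Mock and 4.73, 4.91 and 3.97 in DEX plants. In *TRY* the Mock 1 value lay below all 3 DEX values, and the difference went from -0.68 (SE 0.59) to -1.34 (SE 0.34, adjusted p = 0.492) when Mock 1 was left out, but to -0.34 without Mock 2 and -0.37 without Mock 3. *ETC1* stood at 3.90, 5.63 and 5.60 in Mock and 3.96, 5.15 and 4.25 in DEX plants, a difference of -0.59 (SE 0.56) with and -1.16 (SE 0.40) without Mock 1, -0.30 without Mock 2 and -0.31 without Mock 3. The probe set of *ETC1* is of the _x_at type, which may also read other transcripts.

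*MYBL2*, a single-repeat MYB that represses anthocyanin synthesis, stood at 8.73, 9.85 and 9.57 in Mock and 9.09, 8.55 and 8.29 in DEX plants. The difference was -0.74 (SE 0.37) with and -1.07 (SE 0.31, adjusted p = 0.521) without Mock 1, and -0.50 without Mock 2, the smallest when 1 array was left out. *FDH* (*FIDDLEHEAD*), which encodes an enzyme of long-chain lipid synthesis in the epidermis, stood at 7.23, 8.63 and 8.84 in Mock and 7.34, 7.62 and 8.27 in DEX plants (-0.49 with and -0.99 without Mock 1, and -0.18 without Mock 3). In *MYBL2* and *FDH* the Mock 1 value lay below both other Mock arrays, so the groups overlapped with all arrays and did not without Mock 1. At3g50790, annotated in the study as a putative hydrolase, was the only target at an unadjusted p under 0.05 with all arrays. It stood at 6.99, 7.23 and 7.14 in Mock and 6.89, 5.37 and 5.88 in DEX plants, a difference of -1.07 (SE 0.40, limma adjusted p = 0.986; -1.14 without Mock 1, and -1.50 to -0.74 when 1 array was left out), with DEX 1 near the Mock arrays and DEX 2 and DEX 3 below them.

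The other 5 tested targets were higher or close to 0. *SCL8*, a GRAS family transcription factor, stood at 4.46, 3.42 and 3.22 in Mock and 3.64, 4.05 and 4.46 in DEX plants, a difference of 0.35 (SE 0.40) with and 0.73 (SE 0.31) without Mock 1 (0.11 to 0.73 when 1 array was left out). Mock 1 was level with the highest DEX array for this gene. *SIM*, an inhibitor of the mitotic cycle in trichomes, stood at 5.84, 4.47 and 5.05 in Mock and 6.65, 5.81 and 4.43 in DEX plants (0.51, SE 0.62). Its difference was 0.87 without Mock 1, 0.00 without DEX 1 and 1.12 without DEX 3, and the sample 1 array was the highest of each group. *RBR1*, the retinoblastoma-related regulator of the cell cycle, had a difference of 0.01 (SE 0.24; -0.04 without Mock 1), At1g77670 of 0.02 (SE 0.27; -0.01) and At4g20960, a gene of riboflavin synthesis, of -0.20 (SE 0.31; -0.42). Each of these 3 changed sign when 1 array or another was left out, with ranges of -0.17 to 0.14, -0.18 to 0.24 and -0.42 to 0.09.

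**Figure D2:**
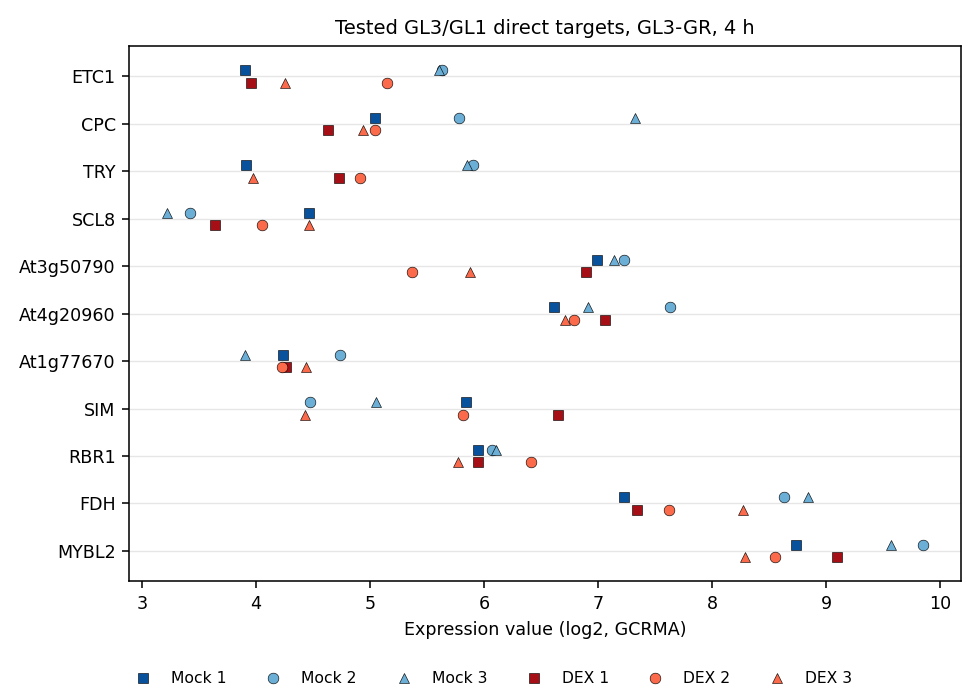
Expression value (log2, x axis) of the 11 tested GL3/GL1 direct targets on each of the 6 arrays, Mock in blue and DEX in red, with squares for the sample 1 arrays. For *ETC1*, *TRY*, *MYBL2* and *FDH* the Mock 1 square lies among or below the DEX points, away from Mock 2 and Mock 3.

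The remaining trichome genes were taken from the study's list by function. Of the other pattern genes, *GL1* (2.32 to 2.80), *EGL3* (2.62 to 2.94) and *MYB23* (2.35 to 2.37) were near the floor on all arrays, while *TTG1* was expressed at 5.60, 5.63 and 5.40 in Mock and 6.39, 5.21 and 5.02 in DEX plants (log2 difference 0.00 with and 0.03, SE 0.46, without Mock 1). *GEM*, a regulator of cell division and fate in the epidermis, differed by -0.15 (SE 0.42) with and -0.23 without Mock 1. All 6 tested pattern genes had a difference at or below 0, of which 4 were the MYB inhibitors above, and the median was -0.64 (-1.11 without Mock 1). Of the genes listed for initiation, *ROL1*, an enzyme of rhamnose synthesis, differed by -0.40 (SE 0.26; -0.38 without Mock 1), *SPY* by 0.16 (SE 0.32; 0.25) and *RGA*, a DELLA repressor of gibberellin signalling, by 0.02 (SE 0.36; -0.23).

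The genes of endoreduplication were split, with 9 of 20 tested members higher, 11 lower and a median of -0.09. Without Mock 1 the counts were again 9 and 11, with a median of -0.02. The member listed as *CYC3A* has a locus that RefSeq names *OASA1*, so its place in these counts is uncertain. *CYCT1;4*, a T-type cyclin, stood at 5.95, 6.17 and 5.25 in Mock and 7.73, 6.66 and 5.74 in DEX plants (0.92, SE 0.53), a difference of 1.0 without Mock 1 and of 0.41 without DEX 1. *E2Fa*, a transcription factor that drives DNA synthesis, stood at 3.46, 2.64 and 2.68 in Mock and 4.96, 3.22 and 2.86 in DEX plants (0.75, SE 0.58), highest on the sample 1 array of each group, and its difference was 1.02 without Mock 1 and 0.12 without DEX 1. *CDKC;2* stood at 5.55, 5.57 and 4.95 in Mock and 4.94, 4.67 and 4.62 in DEX plants, a difference of -0.61 (SE 0.25, limma adjusted p = 0.986; -0.52 without Mock 1) with groups that barely separated. *MSI1*, a subunit of chromatin assembly factor, differed by -0.40 (SE 0.21), while its partners *FAS1* and *FAS2* differed by -0.11 and 0.40, and without Mock 1 the differences of the 3 genes were -0.45, 0.17 and 0.42.

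Of 17 tested genes of trichome shape, 7 were higher and 10 lower, with a median of -0.18 (6, 11 and -0.10 without Mock 1). The member listed as *ARP2* has a locus that RefSeq names *RPL3B*, so its place in these counts is uncertain. *NAP1*, of the complex that activates actin branching, had the largest difference, 0.59 (SE 0.31; 0.43 without Mock 1), at 4.86, 5.68 and 5.03 in Mock and 5.81, 6.09 and 5.44 in DEX plants. *KINESIN-13A* differed by -0.49 (SE 0.25; -0.44 without Mock 1), *KIPK*, a protein kinase, by -0.44 (SE 0.20; -0.53) and *WURM*, the actin-related protein ARP2, by -0.41 (SE 0.39; -0.76). *KIPK* was the only one of these 4 genes whose groups did not overlap (5.28 to 5.59 in Mock, 4.95 to 5.12 in DEX plants). None of the 3 lists of initiation, endoreduplication and shape had a called member with or without Mock 1.

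Leaving out Mock 1 raised the number of probe sets with a small p but gave no call. With 3 DEX arrays against Mock 2 and Mock 3, 0 of 14348 probe sets (0%) were called and the smallest adjusted p was 0.487. At an unadjusted p under 0.01, 37 (0.258%) were higher and 245 (1.71%) lower with DEX, and 1226 (8.54%) had an unadjusted p under 0.05. A probe set could pass the filter through Mock 2 and Mock 3 alone, the whole Mock group of this fit. The filter thus leans towards probe sets lower with DEX. With no filter, 63 were higher and 428 lower at this limma p. The methods' t-test gave 269 probe sets at p under 0.01 and called 4, all lower, after Benjamini-Hochberg adjustment. Those 4, named here after their values were seen, were At3g15460 and 3 probe sets that carry no gene name here. For At3g15460 the values were 5.77 and 5.82 in Mock 2 and 3, 4.67 on each DEX array and 4.63 in Mock 1.

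Mock 1 itself lay on the DEX side for most of these probe sets. Of the 37 that were higher without it, Mock 1 lay within or above the range of the 3 DEX arrays for 28 (75.7%). Of the 245 that were lower, it lay within or below that range for 180 (73.5%). It was level with or past one of the other Mock arrays for 2 and 11 of them. When Mock 1 was added back, 3 of the 37 and 21 of the 245 kept an unadjusted p under 0.01, and the median difference went from 1.31 to 0.80 and from -1.27 to -0.79. In most of them Mock 2 and Mock 3 thus stood apart from the other 4 arrays, 1 of which was a Mock array. These probe sets were picked for Mock 2 and Mock 3 lying away from the DEX arrays. The position of Mock 1 over all probe sets was not counted, so the shares have no background beside them.

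Of the 10 named genes of smallest p that were higher in DEX plants than in Mock 2 and 3, *MCCA*, *IVD* and *ALDH7B4* encode metabolic enzymes. *MCCA* encodes a subunit of methylcrotonyl-CoA carboxylase in leucine breakdown, and stood at 10.92 in Mock 1, at 8.64 and 8.45 in Mock 2 and 3, and at 10.75, 10.34 and 10.26 in DEX plants. Its difference was 1.91 (SE 0.25, 3.75-fold, limma adjusted p = 0.487) without and 1.11 (SE 0.66, adjusted p = 0.986) with Mock 1, which was the highest of the 6 arrays. *IVD*, isovaleryl-CoA dehydrogenase of the same pathway, stood at 11.14 in Mock 1, 9.20 and 9.34 in Mock 2 and 3 and 10.58, 10.28 and 10.56 in DEX plants (1.20, SE 0.22 without and 0.58 with Mock 1). *ALDH7B4*, an aldehyde dehydrogenase, stood at 10.48, 8.12 and 8.06 in Mock and 9.98, 9.40 and 9.48 in DEX plants (1.53, SE 0.26 without and 0.73 with Mock 1).

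Other genes of amino acid breakdown were looked up after these values were seen, and are given by their values. The 13 tested genes of this list included *MCCA*, *IVD*, *ALDH7B4* and At5g57655, each already picked for a small p in these same data. The counts are therefore a description only. Of the 13, 11 were higher and 2 lower with DEX, with a median of 0.36, where 8685 of all 14348 probe sets (60.5%) were lower. Without Mock 1 the counts were again 11 and 2, with a median of 0.94, where 8306 of all probe sets (57.9%) were lower. *LKR/SDH*, of lysine breakdown, stood at 9.62, 7.93 and 6.74 in Mock and 8.98, 8.98 and 8.48 in DEX plants. *ETFQO*, which passes electrons from these reactions to the respiratory chain, stood at 6.67, 4.6 and 4.91 in Mock and 6.12, 5.48 and 5.65 in DEX plants. In both genes Mock 1 was the highest of the 6 arrays. The 2 genes lower with all arrays were *MCCB* (-0.08, but 0.45 without Mock 1) and *E1A2*. *E1A2* stood at 5.84, 6.97 and 7.23 in Mock and 7.05, 6.62 and 5.99 in DEX plants (-0.13; -0.55 without Mock 1), with Mock 1 the lowest array.

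Of the other 7 named genes of smallest p in that direction, At5g57655, At5g52430 and *UGT76E11*, a glycosyltransferase gene, kept groups without overlap when Mock 1 was included. *UGT76E11* stood at 5.48, 4.51 and 4.58 in Mock and 5.79, 5.67 and 6.16 in DEX plants, a difference of 1.33 (SE 0.24, 2.51-fold) without and 1.01 (SE 0.33, limma adjusted p = 0.986) with Mock 1. At5g39520, At1g64610, At4g16100 and At3g04010 overlapped once Mock 1 was added. Their differences were 1.16 to 1.51 without and 0.61 to 0.91 with it.

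The 10 named genes of smallest p that were lower than in Mock 2 and 3 included 4 pseudogenes by RefSeq, At3g32000, At2g04970, At1g52090 and At1g52010. All 4 are read by probe sets of the _x_at or _s_at type, which may also read other transcripts. At3g32000 stood at the floor in Mock 1 and in DEX plants (2.40 to 2.41) and at 4.01 and 4.35 in Mock 2 and 3. It therefore passed the filter through Mock 2 and Mock 3 alone, and how many others did so was not counted. At2g04970 stood at 4.59, 6.47 and 6.73 in Mock and 4.56, 4.98 and 4.80 in DEX plants. Of all tested probe sets with a locus, 165 of 7893 (2.09%) were pseudogenes, against 17 of 144 (11.8%) among those lower at p under 0.01 without Mock 1 and 0 of 19 (0%) among those lower with all arrays. Over the 165 the median value was 3.51, 3.78 and 3.99 in Mock and 3.35, 3.80 and 3.99 in DEX plants. By this median they were lowest on the sample 1 arrays and level between Mock and DEX plants of samples 2 and 3. *XTH26*, an enzyme that remodels xyloglucan in the cell wall, was the only gene of the 10 with a symbol, at 3.32, 5.65 and 5.68 in Mock and 3.71, 3.91 and 3.21 in DEX plants (-2.05, SE 0.28 without Mock 1; -1.27, SE 0.66 with it). At5g06480 was the only one of the 10 whose groups did not overlap with all arrays, at 4.14, 5.52 and 5.92 in Mock and 4.14, 3.67 and 3.70 in DEX plants, where Mock 1 and DEX 1 were equal to 2 decimals.

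**Figure D3:**
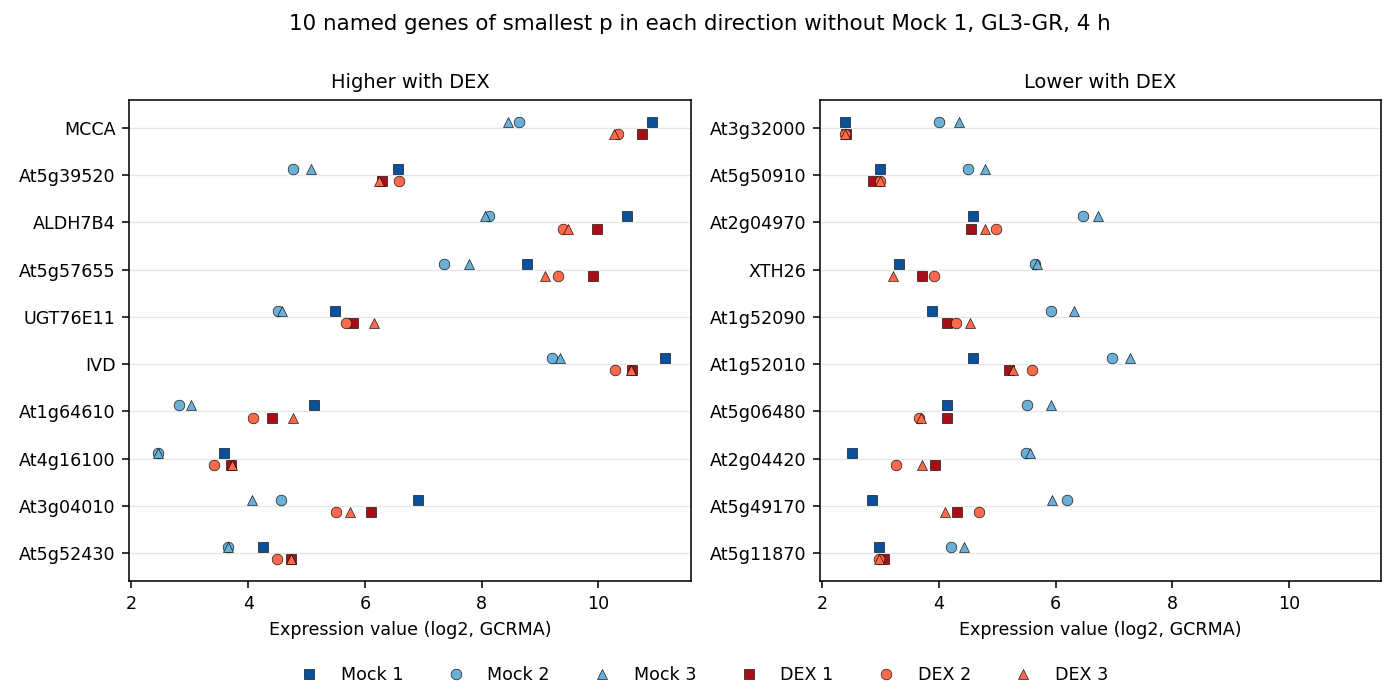
Expression value (log2, x axis) on each array for the 10 named genes of smallest limma p that were higher (left) and lower (right) with DEX in the fit without Mock 1. Mock arrays are blue, DEX arrays red and sample 1 arrays squares, and the dark blue Mock 1 square lies with or beyond the DEX points for most genes, as for *MCCA* at 10.92 and *XTH26* at 3.32.

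Mock 1 stood apart in genes of touch and rapid stress. The array was singled out for its values, so no test is given. Of 25 such genes listed, 4 had a named probe set. *CML37*, a calmodulin-like protein of wound and stress responses, stood at 9.72 in Mock 1, 2.72 and 3.51 in Mock 2 and 3, and 3.69, 5.38 and 6.39 in DEX plants. *CML38* stood at 10.88 in Mock 1 and 6.17 to 7.64 elsewhere, and *STZ*, a zinc finger repressor of stress responses, at 10.13 in Mock 1 and 5.77 to 6.21 elsewhere. *WRKY53* differed less, with 6.30 in Mock 1 and 5.23 to 6.18 elsewhere. The mean over the 4 genes was 9.26 in Mock 1 and 5.27 to 6.41 on the other arrays, and with Mock 1 in the group their median DEX minus Mock difference was -0.67, against 0.24 without it.

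The 10 named genes highest in Mock 1 against Mock 2 and 3 exceeded them by 5.39 to 7.30. At2g23270 led them, at 10.78 in Mock 1 and 3.31 to 5.52 on the other 5 arrays. *DLAH*, a lipase-like acylhydrolase, stood at 12.11 in Mock 1, 5.34 and 5.85 in Mock 2 and 3, and 3.44, 3.5 and 6.66 in DEX plants. *GAT1_2.1*, a glutamine amidotransferase, stood at 9.46, 3.84 and 4.06 in Mock and 8.31, 6.23 and 5.21 in DEX plants, high on both sample 1 arrays. At the other end, the 10 lowest lay below Mock 2 and 3, with differences of -3.68 to -4.68. At5g62280 stood at 2.94, 7.58 and 7.66 in Mock and 3.59, 7.69 and 6.08 in DEX plants, and *RALFL28*, a gene for a RALF-type signalling peptide, at 2.93, 6.37 and 7.80 in Mock and 4.43, 5.5 and 4.44 in DEX plants.

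Genes of cold and dehydration were high on both sample 1 arrays. The list was drawn up after the values were seen and is a description. *COR15A*, which encodes a chloroplast protein that protects membranes in frost, stood at 7.26, 2.79 and 2.91 in Mock and 8.45, 2.34 and 2.99 in DEX plants. The dehydrin gene *LTI30* stood at 9.47, 4.80 and 4.16 in Mock and 9.82, 4.81 and 4.35 in DEX plants. *COR47*, a dehydrin too, stood at 12.13, 10.09 and 10.38 in Mock and 12.57, 10.99 and 10.22 in DEX plants. In each, Mock 1 and DEX 1 lay above the other 4 arrays, so that DEX minus Mock differences stayed small beside their errors (0.27, SE 1.91 for *COR15A* and 0.18, SE 1.90 for *LTI30*), and turned to 1.74 and 1.84 without Mock 1 and to -1.65 and -1.56 without DEX 1.

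The mean of the 6 tested cold genes was 9.43 in Mock 1, higher again in DEX 1, and 5.79 to 6.09 on the other arrays. Over all tested probe sets, 284 (1.98%) had both sample 1 arrays more than 1 log2 unit above the other 4 arrays, and 54 (0.376%) had both as far below. Among the latter were *IAA29*, an auxin-responsive repressor, at 5.03, 7.28 and 7.77 in Mock and 2.84, 7.47 and 6.42 in DEX plants, and *PRX52*, a peroxidase, at 3.44, 6.78 and 7.29 in Mock and 3.5, 5.5 and 7.04 in DEX plants. Both genes were named after their values were seen.

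Leaving out both sample 1 arrays, an alternative chosen after seeing the data, left 2 arrays against 2. It called 0 probe sets, with 539 at an unadjusted p under 0.01 (121 higher, 418 lower) and a smallest adjusted p of 0.158. For *MYBL2* the difference was then -1.29 (SE 0.22), for At3g50790 -1.56 (SE 0.25), for *CPC* -1.56 (SE 0.57) and for At5g28630 -2.93 (SE 0.43). Among other direct targets *TRY* differed by -1.43 (SE 0.37), *SCL8* by 0.94 (SE 0.23), *SIM* by 0.36 (SE 0.56) and *RBR1* by 0.01 (SE 0.28).

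**Figure D4:**
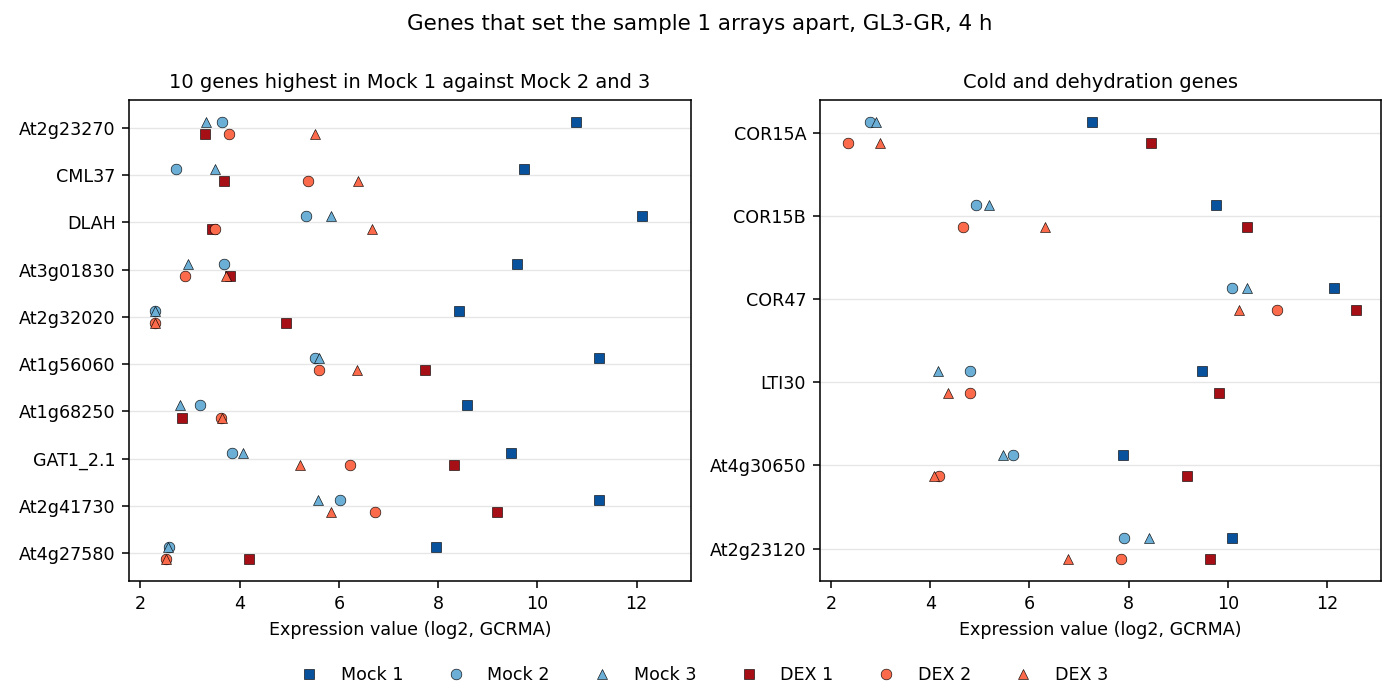
Expression value (log2, x axis) on each array of the 10 named genes highest in Mock 1 against Mock 2 and 3 (left) and of the 6 tested cold and dehydration genes (right), Mock in blue and DEX in red. The dark blue square of Mock 1 lies alone to the right in most genes on the left, while both squares, Mock 1 and DEX 1, lie to the right of the other 4 arrays on the right.

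Other gene groups of leaf metabolism and development gave no call, with or without Mock 1. Of 23 glucosinolate genes listed, 3 had a named probe set and were tested. *AOP3*, of side chain modification of aliphatic glucosinolates, stood at 7.89, 8.99 and 8.58 in Mock and 7.91, 5.93 and 7.05 in DEX plants (-1.52, SE 0.55, limma adjusted p = 0.986; -1.82 without Mock 1). *BCAT4*, of the first step of chain elongation, stood at 9.44, 9.86 and 10.11 in Mock and 9.68, 8.47 and 8.66 in DEX plants (-0.87, SE 0.38; -1.05 without Mock 1). The groups overlapped through the sample 1 arrays in both genes, with DEX 2 and DEX 3 the lowest arrays. *UGT74B1*, a glucosyltransferase of glucosinolate synthesis, stood at 8.09, 8.48 and 8.56 in Mock and 7.53, 7.79 and 8.53 in DEX plants (-0.43; -0.57 without Mock 1), with DEX 3 level with the Mock arrays.

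Flavonoid glycosylation genes went both ways. *UF3GT*, an anthocyanin glycosyltransferase, stood at 3.53, 3.02 and 3.53 in Mock and 3.16, 5.03 and 5.37 in DEX plants (1.16, SE 0.58; 1.24 without Mock 1), high on DEX 2 and DEX 3 only. *UGT78D1*, a flavonol glycosyltransferase, stood at 5.83, 7.30 and 7.05 in Mock and 6.14, 5.77 and 6.06 in DEX plants (-0.73, SE 0.41 with and -1.18, SE 0.24, limma adjusted p = 0.487 without Mock 1). *UGT78D2* differed by -0.74 (SE 0.36; -0.52 without Mock 1) with groups that did not overlap. *DFR*, the enzyme at the entry to anthocyanins, was at the floor (2.27 to 2.28).

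In the stomatal lineage, *FMA*, the factor of the last division before guard cells form, stood at 3.97, 3.60 and 3.85 in Mock and 4.02, 4.36 and 4.95 in DEX plants (0.64, SE 0.29; 0.72 without Mock 1), without overlap. *STOMAGEN*, a peptide made in mesophyll that promotes stomata, stood at 8.46, 8.59 and 8.96 in Mock and 9.03, 7.57 and 7.20 in DEX plants (-0.73, SE 0.49; -0.84 without Mock 1). *SPCH*, which starts the lineage, differed by -0.41 (SE 0.27; -0.35 without Mock 1). Gibberellin receptors and their partners had differences from -0.32 for *SLY1* to 0.26 for *GID1C* (-0.49 and 0.22 without Mock 1). Of 5 reference genes, *SAND* alone had groups without overlap (5.30 to 5.45 in Mock, 5.68 to 5.94 in DEX plants), and *GAPC2*, *TIP41L*, *PEX4* and *RHIP1* differed by -0.16 to 0.06 (-0.27 to 0.15 without Mock 1).

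**Figure D5:**
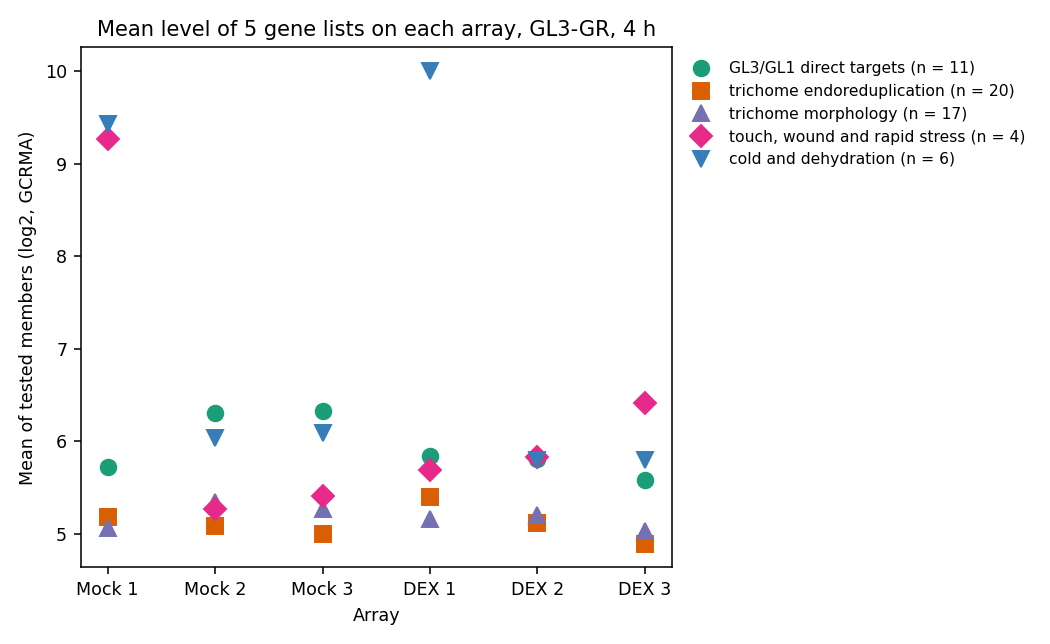
Mean expression value (log2, y axis) over the tested members of 5 gene lists on each of the 6 arrays (x axis), with the number of members in the legend. Touch genes are high on Mock 1 alone (9.26), cold and dehydration genes on Mock 1 (9.43) and DEX 1, and the direct targets are highest on Mock 2 and Mock 3 (6.30 and 6.32).

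The GL3-GR differences at 4 hrs were last set against those of GL1-GR at 4 hrs and of GL3-GR at 24 hrs, with a test of each difference of differences. Against GL1-GR at 4 hrs, 0 of 14348 probe sets (0%) were called, 129 (0.899%) had an unadjusted p under 0.01 and the smallest adjusted p was 0.861. Against GL3-GR at 24 hrs, 0 (0%) were called and 32 (0.223%) had an unadjusted p under 0.01. The 3 sets of arrays appear to have been normalized separately, and differences within each set were compared, not levels.

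None of the direct targets passed either of these tests. The GL1-GR difference of *CPC* at 4 hrs was -0.06, beside -1.18 for GL3-GR, and the difference between them was -1.12 (SE 0.67, limma adjusted p = 0.948). For *TRY* the values were -0.29 and -0.68, and for *MYBL2* -0.01 and -0.74. At3g50790 had 0.30 in GL1-GR and -1.07 in GL3-GR plants, a difference of -1.37 (SE 0.43, adjusted p = 0.948). At5g28630 had -0.08 in GL1-GR plants at 4 hrs and -0.79 in GL3-GR plants at 24 hrs, beside -3.27 here. Its differences of -3.18 (SE 0.66, adjusted p = 0.861) and -2.47 (SE 0.83, adjusted p = 1) did not pass. *CPC*, *TRY* and *ETC1* were close to the floor in GL3-GR plants at 24 hrs (means of 2.11 to 2.99), so the later values of these 3 genes give little to compare.

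The calls depended on how the spread was estimated. When all 22 arrays shared 1 estimate of the spread per probe set, 139 probe sets were called for GL3-GR at 4 hrs (29 higher, 110 lower), and 1691 without Mock 1. That estimate draws on arrays whose residual SD was 0.191 to 0.283, against 0.573 for these 6. Under it At5g28630 had an adjusted p of 0.00109, At3g60245 of 0.00158 and At3g50790 of 0.0437. With the spread of the 6 arrays themselves, none of these was called.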

How the data were processed

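RNA was amplified and labelled with biotin by the NuGEN Ovation system, per the labels. The deposited values are log2 expression values per probe set, which the authors normalized by GCRMA in R. That the scale is log2 was judged from the values, and the number of normalization runs is not given in the sources used here. The lowest value of an array (2.25 to 2.26 on these 6) differed between line and time sets, so levels were compared within a set only. Control probe sets (64) were left out, and 22746 remained. By GEO's annotation of the platform, possibly out of date, 13513 had 1 gene, 503 several and 8730 none, and 53 more were named through the study's trichome gene list. Locus names were matched to RefSeq genes of TAIR10.1 (13537 probe sets). No sequence or coordinate was used here. Of 231 pairs of arrays, 0 were identical.

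Probe sets above the array's 40th percentile in at least 2 of the 6 arrays were tested (14348). A model with 1 mean per group was fitted with limma 3.58.1 (lmFit, eBayes; R 4.3.3), two-sided, with Benjamini-Hochberg adjustment over all tested probe sets and a threshold of 0.05. Differences of differences used the arrays of both sets. Named genes were the 10 of smallest p in each direction with and without Mock 1, the 10 highest and 10 lowest in Mock 1, the direct targets and the list members that differed most. For a locus with several probe sets, the one with the highest mean was used. The members and lists were chosen with earlier results of these data known. The fit was also run on simulated arrays with known differences, and its mean estimates were checked against them. That check does not measure how many true differences would be called. Alternatives were other scalings, filters, spread estimates, weights, a replicate block, the methods' t-test (unadjusted p under 0.01) and leaving out each array.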

Additional observations from a re-analysis of the deposited data

How the results depend on the processing

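With the 6 arrays, 0 probe sets were called under every alternative run except the shared spread of all 22 arrays (139). At an unadjusted p under 0.01 there were 50, against 119 with no filter, 1009 with all 22 arrays, 1050 with array weights, 539 without both sample 1 arrays and 17 to 376 when 1 array was left out, lowest without DEX 2 and highest without DEX 1 (282 without Mock 1). Without Mock 1, 0 were called, against 1691 with all other arrays and 4 by the methods' t-test. At p under 0.01 there were 282, against 491 with no filter, 171 with the stricter filter, 2076 with all other arrays, 1005 with array weights and 121 to 539 when 1 more array was left out. Scaling moved the directions of these 282 (37 higher and 245 lower) to 102 and 192 by quantile normalization and to 107 and 161 by shifting medians, with which the median of all differences went from -0.08 to 0.05. With all arrays it went from -0.09 to 0.06.

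Against GL1-GR at 4 hrs, 0 were called, against 1 by quantile normalization (a probe set with no gene named), 1 with no filter (another with no gene named), 3 with all arrays (At1g57600, At5g43930 and a probe set with no gene named), 987 with array weights and 0 to 116 when 1 array was left out (22 without Mock 1, 116 without DEX 1). Against GL3-GR at 24 hrs, 0 were called, against 1 with all arrays (the same unnamed probe set as in the fit of all arrays above). These probe sets were named after their values were seen.

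Deviations from the group means correlated between Mock and DEX at 0.298, 0.274 and 0.069 for samples 1 to 3. Mock 1 and Mock 2 each correlated best with the DEX array of the same number, while Mock 3 correlated better with DEX 2 (0.269). Deviations within a group are not independent of each other, so these values do not settle whether the samples were paired. With the replicate block 0 probe sets were called in each of the 4 comparisons, with 49 at p under 0.01 for the 6 arrays and 414 without Mock 1.

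Of 50 genes followed through 788 refits, 7 values reversed, in 3 genes with differences near 0. Most of the 50 were picked for a small p in these same data, so few reversals among them are no measure of stability. *RBR1* went to -0.04 without Mock 1 and -0.17 without DEX 2 (-0.17 to 0.14 when 1 array was left out). At1g77670 went to -0.15 with array weights, -0.01 without Mock 1, -0.18 without Mock 3 and -0.05 without DEX 3 (-0.18 to 0.24). At4g20960 went to 0.09 without Mock 2 (-0.42 to 0.09). The 22 values that passed the threshold were all from the fit of 22 arrays. The median of the direct targets went from -0.49 to -0.99 without Mock 1 and to -0.10 with no filter, which adds the 3 targets at the floor. The cause of the other changes was not tested. With 3 arrays a group and a residual SD of 0.573, the counts of 0 do not show that RNA levels were alike.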

Other observations

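Further gene groups, described by their values, gave no call. Of the genes of low oxygen, 3 were tested. *PDC2*, a pyruvate decarboxylase of fermentation, stood at 9.35, 9.85 and 9.53 in Mock and 8.75, 8.99 and 9.76 in DEX plants (-0.41, SE 0.32; -0.52 without Mock 1), and *LDH1*, a lactate dehydrogenase, at 5.89, 3.97 and 3.37 in Mock and 4.78, 3.37 and 3.46 in DEX plants, highest on the sample 1 array of each group. The difference of *LDH1* was -0.54 with all arrays and turned to 0.20 without Mock 1, and At5g10040 differed by -0.61 and -0.66. The auxin-conjugating enzyme gene *GH3.3* was highest on Mock 1 (8.80, against 5.67 to 7.24 elsewhere), and *GH3.5* on DEX 2 (7.16, against 4.51 to 5.43 elsewhere). Of the wax and cuticle genes, *YRE* (*CER3*), needed for alkane synthesis, stood at 8.14, 7.88 and 7.58 in Mock and 8.17, 6.75 and 7.09 in DEX plants (-0.53, SE 0.40; -0.40 without Mock 1). *GI*, a clock gene, differed by 0.12 (SE 0.39; 0.40 without Mock 1). The heat shock gene *HSP17.6C* had groups without overlap (3.95 to 4.11 in Mock, 2.83 to 3.93 in DEX plants), with DEX 2 and DEX 3 just below the Mock arrays and a difference of -0.49 that was -0.12 without DEX 1.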
